A study of Homo sapiens with 6 samples.

Results

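The matrix metalloproteinase (MMP), ADAM, ADAMTS and TIMP genes were examined in U-2 OS cells, an established human osteosarcoma line, after knock-down of SFPQ. Members were the protein-coding genes whose symbols begin with MMP, ADAM (ADAMTS and ADAMTSL included) or TIMP and a digit, which gave 73 of the 60664 genes in the count table. They comprised 24 MMP, 21 ADAM, 19 ADAMTS, 5 ADAMTSL and 4 TIMP genes. MMP24OS, which lies opposite MMP24 and is not a metalloproteinase, entered through its symbol alone. The siControl cells received control siRNA and the siSFPQ cells received siRNA against SFPQ, for which the labels give a final dose of 30 nM. All cells came from the same polyploid line, with no other treatment named. Each condition had 3 biological replicates. Library totals lay between 46142855 and 47119203 counts for siControl and between 43469321 and 45543610 counts for siSFPQ. A floor of 3 counts per library corresponds to 0.0637 to 0.069 CPM (counts scaled by the library total in the usual unit), a limit that covers counting error only.

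MMPs are zinc-dependent proteases that cut collagens, gelatin and other matrix proteins, and many are made as inactive precursors. ADAM proteins are mostly anchored in the membrane, where the active ones release the outer parts of growth factors, cytokines and receptors. The ADAMTS enzymes are secreted and process procollagens, proteoglycans and other matrix proteins, while the ADAMTSL proteins share their non-catalytic domains but lack the protease. TIMPs bind the active site of these enzymes and inhibit them. In bone, these proteins take part in the turnover of the collagen matrix and in the growth and invasion of bone tumors. SFPQ itself is an RNA-binding protein of the nucleus.

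SFPQ (chromosome 1, 35176378 to 35193446, GRCh38) was measured at 22381, 23139 and 21811 normalized counts after control siRNA and at 3238, 3780 and 3108 after SFPQ siRNA. Normalized counts are reads per gene divided by the effective library size and brought to a common scale. The targeted transcript was thus low in every library labelled siSFPQ, with a log2 fold change of -2.73 (SE 0.0498, edgeR adjusted p = 6.34e-30). Among osteoblast lineage markers, COL1A1 was at 2588 CPM, SPARC at 2097 CPM and RUNX2 at 58.9 CPM on average over the 6 libraries, whereas the late markers SP7 and IBSP were near 0, at 0.0292 and 0.00366 CPM. Leukocyte markers summed to at most 0.854 CPM in any library. The 5 epithelial markers, among which KRT8 was the most abundant, summed to between 320 and 334 CPM in siControl and between 747 and 811 CPM in siSFPQ. Nearly all of this sum was KRT8 and KRT18, at means of 317 and 232 CPM. KRT8, KRT18 and the low CDH1 (1.49 CPM) rose, whereas EPCAM (log2 fold change -0.18) and KRT19 (0.0768 CPM) were not called. The part of this difference in the results below was not tested. In cultures measured in bulk, fewer expressing cells and less RNA per cell cannot be told apart.

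Of the 73 members, 67 had at least 10 counts in total and were tested. The remaining ones were MMP26, with 0 counts in all libraries, and ADAM2, ADAM30, ADAM33, ADAMDEC1 and MMP27, with so few counts that no comparison was made. At an adjusted p under 0.05, 19 members were higher in siSFPQ and 22 were lower, against 22.4% and 22.1% of all 29022 genes tested and 28.0% and 30.9% of the 16477 protein-coding ones. Relative to the members tested, these were 28.4% and 32.8%, close to the shares of protein-coding genes. An adjusted p under 0.05 together with a change over 1.5 or under -1.5 on the log2 scale was reached by 5 members upwards (ADAMTSL4, MMP10, MMP11, MMP12 and MMP13) and 5 downwards (ADAM12, ADAMTS2, MMP8, TIMP2 and TIMP3). All genes gave 5.54% and 4.77%, and protein-coding genes 3.28% and 4.97%. In 19 members all siSFPQ replicates lay above all siControl replicates and in 23 below, while the conditions did not overlap in 26.9% and 25.4% of all genes and in 31.5% and 33.6% of protein-coding genes. The median log2 fold change was -0.03 for the members and 0.02 for all genes. Rises and falls among the members were thus about equal in number.

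By family, 8 of 22 MMP genes tested rose (36.4%) and 4 fell (18.2%), beside 28.0% and 30.9% of protein-coding genes. Among 17 ADAM genes 5 rose (29.4%) and 6 fell (35.3%), and among 19 ADAMTS genes 3 rose (15.8%) and 8 fell (42.1%). Of 5 ADAMTSL genes 2 rose and 2 fell, and of 4 TIMP genes 1 rose and 2 fell. The median log2 fold change was 0.34 for MMP, 0.40 for ADAM, -0.23 for ADAMTS, -0.21 for ADAMTSL and -0.59 for TIMP genes. With MMP28 and TIMP4, which had at most 3 counts in every siControl library, set against the floor, the MMP and TIMP medians were 0.29 and -0.63. With members of at least 1 CPM alone, the ADAM median turned to -0.19, the ADAMTS median was -0.46, the MMP median was 0.27 and the TIMP median was -1.56. Single libraries moved these medians as well: without siControl replicate 2 the ADAM median was 0.07 and the ADAMTSL median -0.10, without siSFPQ replicate 1 the ADAMTS median was -0.70 and the MMP median 0.46, without siSFPQ replicate 2 the TIMP median was -1.60 and the MMP median 0.22, and without siSFPQ replicate 3 the ADAMTS median was -0.03. Whether the families differ from each other was not tested, since genes are not replicates of a condition.

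**Figure D1:**
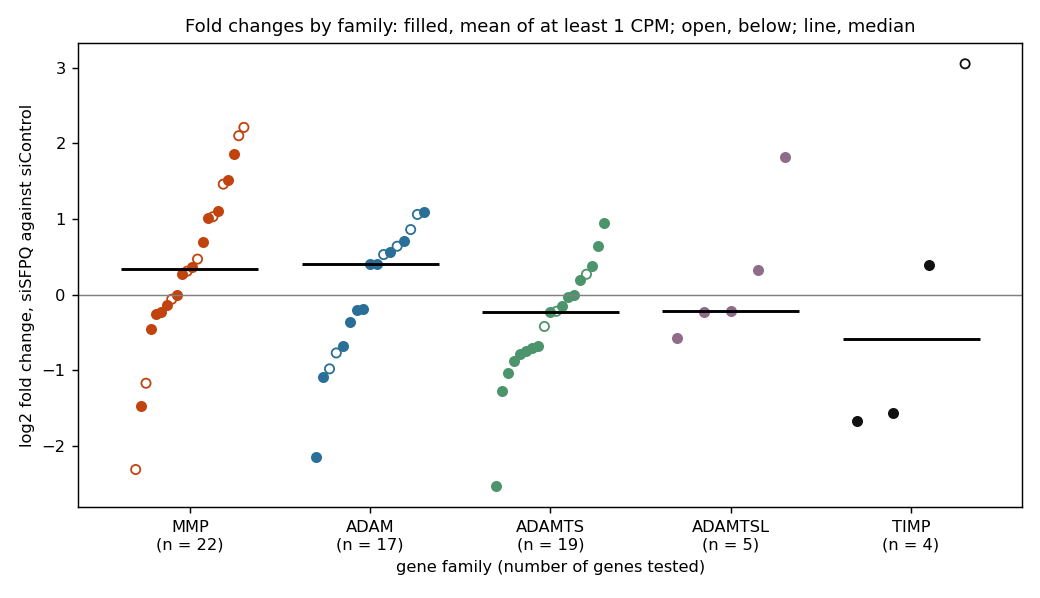
Log2 fold changes of siSFPQ against siControl for the 67 members tested, by family, with each point a gene, filled for a mean of at least 1 CPM and open below that level, and a line at each family's median. The MMP points reach from -2.31 (MMP8) to 2.21 (MMP12), both open, while the filled TIMP points lie far apart at 0.39 (TIMP1), -1.56 (TIMP2) and -1.67 (TIMP3).

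Levels between genes were compared per length of exon and library total (RPKM, computed from the deposited counts and the union of annotated exons). In siControl, 34 members reached 1 RPKM and 10 reached a level of 10 RPKM. TIMP1 led at 345 RPKM, ahead of MMP2 at 148, MMP14 at 63.2 and TIMP2 at 55.0 RPKM. In siSFPQ, TIMP1, MMP2 and MMP14 kept this order, at levels of 472, 113 and 55.4 RPKM. ADAM19 came next in siSFPQ at 47.3 RPKM, against 21.3 RPKM in siControl, while TIMP2 stood at 19.5 RPKM. ADAMTS12, the most abundant ADAMTS gene in siControl at 24.9 RPKM, was at 10.8 RPKM in siSFPQ. The TIMP2 replicates in siControl (53.6, 55.1 and 56.4 RPKM) lay below those of MMP14 (62.2, 63.7 and 63.7 RPKM) with no overlap, whereas ADAMTS12 (24.6, 26.3 and 23.9 RPKM) and ADAM19 (20.1, 22.1 and 21.5 RPKM) were closer but did not overlap either.

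The inhibitors did not move together. TIMP1, a secreted inhibitor of most soluble MMPs, had 22887, 23247 and 23952 normalized counts in siControl and 29838, 30570 and 31185 in siSFPQ. Every siSFPQ library lay above every siControl library, and the log2 fold change was 0.39 (SE 0.035, edgeR adjusted p = 2.98e-11). TIMP2, which besides inhibiting MMPs helps MMP14 to activate the MMP2 precursor, had 15375, 16128 and 16445 normalized counts in siControl against 5289, 5578 and 5374 in siSFPQ. This fall was of -1.56 on the log2 scale (SE 0.0387, edgeR adjusted p = 2.66e-26), close to the threshold of 1.5. TIMP3, which stays bound to the matrix and also inhibits ADAM17 and several ADAMTS enzymes, had 4340, 4535 and 4313 normalized counts in siControl and 1424, 1303 and 1422 in siSFPQ, a log2 fold change of -1.67 (SE 0.0466, edgeR adjusted p = 6.66e-25). The replicates of both genes were far apart between the conditions and tight within them. TIMP4 had 1, 0 and 0 counts against 5, 5 and 1, too few for a fold change, and was not called (edgeR adjusted p = 0.0796).

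The annotation places TIMP1, TIMP3 and TIMP4 within the span of the synapsin genes SYN1, SYN3 and SYN2, each on the opposite strand. The study's methods name a stranded library kit, but without a stated strand setting of the counting, reads of a TIMP gene and its synapsin partner cannot be fully told apart. The synapsin genes had few reads: SYN1 changed from 62.4 ± 10.7 to 114 ± 11.1 normalized counts (SD, n = 3 each), SYN2 from 107 ± 5.60 to 71.0 ± 8.45, and SYN3 had 36.4 ± 6.85 and 29.3 ± 1.28. These levels are small beside those of TIMP1 and TIMP3, but not beside those of TIMP4. TIMP2 overlaps CEP295NL on the same strand, which went from 125 ± 32.6 to 476 ± 22 normalized counts, opposite to TIMP2. These partners were looked up after the values of the members were seen.

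**Figure D2:**
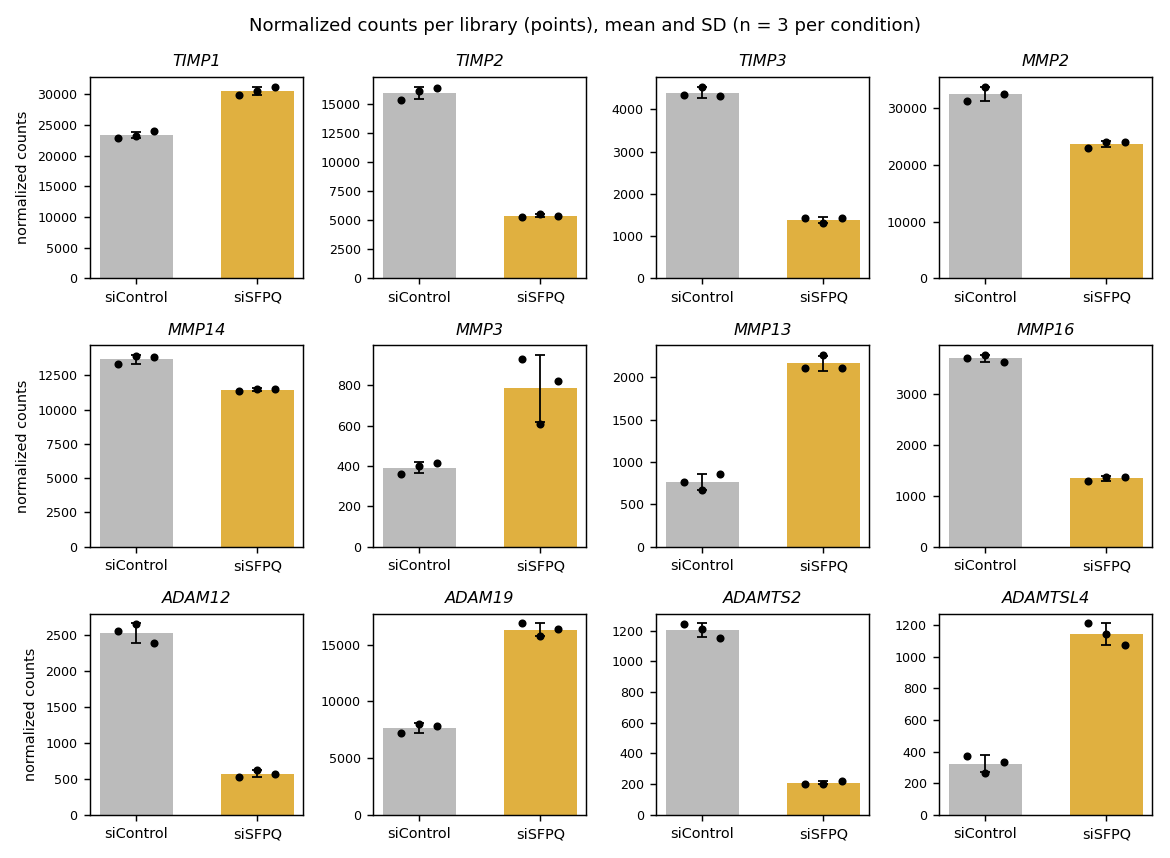
Normalized counts of 12 members in each library (points), with the mean (bars) and SD (error bars) of 3 siControl and 3 siSFPQ libraries, each panel with its own linear axis from 0. In each panel the points of the conditions do not overlap, and the siSFPQ points of MMP3 are spread most relative to their mean, from 606 to 930.

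Among the gelatinases, MMP2 (chromosome 16, 55389700 to 55506691), which cuts denatured collagen and basement membrane collagen, had 31384, 33820 and 32575 normalized counts in siControl and 23008, 24009 and 24093 in siSFPQ. The fall of the most abundant protease gene was small but larger than the spread between replicates (log2 fold change -0.46, SE 0.0362, edgeR adjusted p = 1.03e-12). MMP9, the other gelatinase, was measured at 503 ± 17.3 and 461 ± 27.6 normalized counts and was not called (log2 fold change -0.13, edgeR adjusted p = 0.242).

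The membrane-type MMPs, which act at the cell surface, split. MMP14, the main activator of the MMP2 precursor, fell by 0.25 on the log2 scale, from 13669 ± 319 to 11457 ± 88.7 normalized counts (SD, n = 3 each, edgeR adjusted p = 3.25e-07). MMP16, a close relative of MMP14 on chromosome 8 (88032011 to 88328025), had 3710, 3759 and 3626 normalized counts in siControl and 1287, 1366 and 1360 in siSFPQ. At a log2 fold change of -1.47 (SE 0.0462, edgeR adjusted p = 1.95e-23), it stood just short of the threshold of 1.5. MMP24, known mainly from nervous tissue, rose from 1696 ± 45.2 to 3646 ± 65.6 normalized counts (log2 fold change 1.10, SE 0.0445, edgeR adjusted p = 1.81e-20). Its overlapping partner MMP24OS, on the opposite strand, had 169 ± 31.2 and 144 ± 22.1 and was not called. MMP15 rose by 0.37 and MMP25, with 38.4 ± 9.64 normalized counts in siControl, by 0.69 on the log2 scale. MMP25 overlaps MMP25-AS1 on the opposite strand, which rose from 364 ± 53.6 to 472 ± 42 normalized counts, and its part in the MMP25 count was not tested. The call of MMP25 was lost without siControl replicate 1 (adjusted p = 0.0823), without siSFPQ replicate 1 (adjusted p = 0.0984) and with DESeq2 (adjusted p = 0.0569), while edgeR on all libraries gave an adjusted p of 0.0205. MMP17 was not called.

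All 3 stromelysins rose, MMP11 on few reads and with a call that was lost without some single libraries. Of the 3 collagenases MMP13 rose, MMP8 fell on few reads, as given below, and MMP1 was not called. Of all protein-coding genes tested, 28.0% rose and 30.9% fell. Of those spanning under 50 kb, as all stromelysin and collagenase genes here do, 32.4% rose and 21.6% fell. MMP3, or stromelysin 1, which degrades proteoglycans and activates other MMPs, had 359, 400 and 413 normalized counts in siControl against 930, 606 and 819 in siSFPQ. The siSFPQ replicates were spread widely but all lay above siControl (log2 fold change 1.01, SE 0.105, edgeR adjusted p = 7.01e-10). MMP10, or stromelysin 2, started from 33.1, 17.0 and 13.0 normalized counts and was at 75.3, 70.5 and 84.8 in siSFPQ, a log2 fold change of 1.86 (SE 0.278, edgeR adjusted p = 9.63e-07). MMP13, a collagenase of cartilage and developing bone, had 761, 667 and 852 normalized counts in siControl and 2114, 2265 and 2113 in siSFPQ. The replicates were well separated, but the log2 fold change of 1.51 (SE 0.0649, edgeR adjusted p = 1.04e-19) sat at the threshold, and was 1.42 without siControl replicate 2 and 1.46 without siSFPQ replicate 2. MMP1, the interstitial collagenase, had 12, 16 and 15 counts in siControl and 6, 5 and 8 in siSFPQ, without overlap, and was not called (edgeR adjusted p = 0.0854; 0.0467 after the stricter count filter).

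The remaining calls past the threshold among MMPs rest on few reads. MMP12, an elastase of macrophages that the study placed in its innate immunity signature from these same libraries, had 14, 5 and 4 counts in siControl and 42, 25 and 41 in siSFPQ. Its log2 fold change was 2.21 (SE 0.438, edgeR adjusted p = 7.95e-05), and between 1.91 and 2.96 with each library left out. MMP11, or stromelysin 3, had 4, 2 and 1 counts against 22, 6 and 3, so that 1 siSFPQ library carried the difference and the conditions overlapped. Without siSFPQ replicate 1 its log2 fold change dropped from 2.10 (edgeR adjusted p = 0.0423) to 0.90 (adjusted p = 0.585). MMP8, the neutrophil collagenase, had 7, 5 and 14 counts against 0, 4 and 1. Its log2 fold change of -2.31 moved to -1.76 when siSFPQ replicate 1 was left out and to -3.82 when siSFPQ replicate 2 was. Its adjusted p was 0.0416 with edgeR on all libraries, 0.205 without siControl replicate 3, 0.167 without siSFPQ replicate 1, 0.14 without siSFPQ replicate 3 and 0.0671 with DESeq2. The MMP11 call was also lost without siControl replicate 2 (adjusted p = 0.0841), without siControl replicate 3 (adjusted p = 0.125) and with DESeq2 (adjusted p = 0.0737). MMP19, at 774 ± 104 and 776 ± 23.9 normalized counts, and the low MMP20, MMP21, MMP23B and MMP28 were not called.

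A cluster of 9 MMP genes, MMP7, MMP20, MMP27, MMP8, MMP10, MMP1, MMP3, MMP12 and MMP13 in this order, occupies 435 kb of chromosome 11 (102520508 to 102955732). Of the 8 that were tested, 4 rose (MMP3, MMP10, MMP12 and MMP13) and 1 fell (MMP8). These shares of 50% and 12.5% stand beside 28.0% and 30.9% of protein-coding genes. All 9 cluster genes span under 50 kb, and protein-coding genes of that span gave 32.4% and 21.6%. The MMP8 call rests on few reads, as given above. MMP3, MMP12 and MMP13 lie next to each other, while MMP10 is separated from them by MMP1, which was not called. MMP7, at the far end, had 20.4 ± 10.0 and 25.2 ± 9.05 normalized counts (SD, n = 3 each). MMP3, MMP10 and MMP1 overlap WTAPP1, a gene on the opposite strand with 44.1 ± 15.7 and 84.7 ± 11.1 normalized counts, which makes the lower of these counts uncertain.

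Several MMP promoters are known to carry a binding site of AP-1, a dimer of FOS and JUN proteins. The letters TGANTCA, with N for any base, were searched as a loose form of the AP-1 motif. As a pattern it is the same on both strands. The search used the RefSeq promoters of GRCh38.p14 (250 bases before the start site and 50 after it), at hand for 45 of the 73 members. MMP1, MMP3, MMP12 and MMP13 were not among them. A match was found in 4 of the 45 (8.89%), against 7.71% of all promoters of this length and 6.17% of those of protein-coding genes, and in 1 of 12 promoters of members that rose, 1 of 15 of those that fell and 2 of 15 of those tested without a call. By family, the matches were in 3 of 13 MMP and 1 of 12 ADAMTS promoters. The matched stretches are shown because those of MMP10 and MMP7 begin at the same distance from the start site. Capitals mark the matched letters, and each stretch of 30 bases is written 5′ to 3′ on the gene's strand, which is the minus strand in all of them. The letters were TGAGTCA in MMP7 and TGAATCA in MMP10, MMP20 and ADAMTS12, and binding of AP-1 to them was not tested.
MMP10 (chr11:102780677-102780706): aaacacatgcaTGAATCAtactgttggtga
MMP7 (chr11:102530796-102530825): aaacactcaaaTGAGTCAcctatttccaca
MMP20 (chr11:102625426-102625455): tgtttgagacaTGAATCAtccttgctcgga
ADAMTS12 (chr5:33892056-33892085): acactgtcagcTGAATCActccccttttag
The match began 67 bases before the start site in MMP10 and in MMP7, 112 bases before it in MMP20 and 84 bases before it in ADAMTS12. MMP10 rose, ADAMTS12 fell, and MMP7 and MMP20 were not called.

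ADAM sheddases at the cell surface moved by unequal amounts. ADAM10, which cleaves Notch receptors and many adhesion proteins, fell from 11404 ± 247 to 8893 ± 80.6 normalized counts (mean ± SD of 3 replicates; log2 fold change -0.36, edgeR adjusted p = 3.54e-10). ADAM17, the enzyme that releases tumor necrosis factor and EGF receptor ligands, fell less, from 2816 ± 60.0 to 2473 ± 15.5 (log2 fold change -0.19, edgeR adjusted p = 0.000544). ADAM9 rose by 0.40 and ADAM15 by 0.56 on the log2 scale. ADAM9 overlaps TM2D2 and ADAM17 overlaps IAH1, each on the opposite strand, and ADAM15 overlaps DCST1 on the same strand. TM2D2 rose from 1735 ± 185 to 2017 ± 76.6 and DCST1 from 17.7 ± 10 to 47.1 ± 8.62 normalized counts. The part of these partners in the ADAM counts was not tested. ADAM8, an ADAM of leukocytes and bone-resorbing cells, rose from 252 ± 28.4 to 411 ± 23.4 normalized counts (log2 fold change 0.71, edgeR adjusted p = 6.14e-07).

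ADAM12 and ADAM19, both widely expressed in mesenchymal tissue and known as meltrins, went opposite ways. ADAM12 (chromosome 10, 126012381 to 126388477) had 2548, 2645 and 2380 normalized counts in siControl and 519, 618 and 569 in siSFPQ. Its log2 fold change of -2.15 (SE 0.0622, edgeR adjusted p = 1.76e-24) was the largest fall among ADAM genes. ADAM19 (chromosome 5, 157395534 to 157575775) had 7175, 8016 and 7792 against 16867, 15722 and 16372, a log2 fold change of 1.09 (SE 0.0408, edgeR adjusted p = 2.31e-21). The ADAM19 span overlaps CYFIP2 and NIPAL4 on the opposite strand, which also rose, from 4648 ± 182 to 5460 ± 205 and from 212 ± 10.3 to 485 ± 43.2 normalized counts; their part in the ADAM19 count was not tested.

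The ADAMs that lack protease activity and are known from neurons, ADAM11, ADAM22 and ADAM23, differed as well. ADAM22, a receptor of LGI proteins at synapses, fell from 590 ± 41.5 to 277 ± 15.9 normalized counts (log2 fold change -1.09, edgeR adjusted p = 4.52e-12). ADAM23 fell by 0.20 and ADAM11 rose by 0.40 on the log2 scale. ADAM genes known from testis, such as ADAM2, ADAM18, ADAM20, ADAM21, ADAM29 and ADAM30, had few reads, at a mean of at most 0.362 CPM. None was called, although in ADAM18 and ADAM20 all siSFPQ replicates lay above all siControl replicates. ADAM32, with 218 ± 23.9 normalized counts in siControl and 136 ± 19.1 in siSFPQ, fell by 0.68 on the log2 scale, and ADAM7 and ADAM28 were not called.

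The procollagen N-propeptidases ADAMTS2, ADAMTS3 and ADAMTS14 trim the amino-terminal ends of fibrillar procollagens. ADAMTS2 (chromosome 5, 179110853 to 179345461) had 1243, 1212 and 1153 normalized counts in siControl and 202, 203 and 220 in siSFPQ. With a log2 fold change of -2.53 (SE 0.0807, edgeR adjusted p = 2.72e-23), it had the largest fall among members tested. ADAMTS3 fell from 1391 ± 45.0 to 829 ± 3.80 normalized counts (log2 fold change -0.75, edgeR adjusted p = 1.27e-12), and ADAMTS14, at 41.7 ± 16.8 and 54.2 ± 6.67, was not called.

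Of 7 proteoglycanases, which cut aggrecan and versican, 1 rose (14.3%) and 2 fell (28.6%), beside 28.0% and 30.9% of protein-coding genes. ADAMTS1 had 203, 178 and 159 normalized counts in siControl and 80.4, 101 and 80.9 in siSFPQ (log2 fold change -1.04, SE 0.153, edgeR adjusted p = 7.07e-07). Its neighbour on chromosome 21, the aggrecanase ADAMTS5, fell from 121 ± 21.1 to 75.6 ± 3.71 (log2 fold change -0.68, edgeR adjusted p = 0.00143). ADAMTS9 rose, with 163, 200 and 176 normalized counts in siControl and 335, 344 and 361 in siSFPQ (log2 fold change 0.95, SE 0.11, edgeR adjusted p = 7.75e-09). A second pair of neighbours, ADAMTS8 and ADAMTS15 on chromosome 11, was not called, ADAMTS4 was near the floor, and ADAMTS20 was not called.

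Among the other ADAMTS genes, ADAMTS12, which cuts cartilage oligomeric matrix protein, fell from 11204 ± 608 to 4644 ± 56.5 normalized counts (log2 fold change -1.27, SE 0.0405, edgeR adjusted p = 2.63e-23). ADAMTS6 fell by 0.88, ADAMTS16 by 0.78 and ADAMTS17 by 0.70 on the log2 scale. ADAMTS7, the nearest relative of ADAMTS12, rose from 332 ± 22.4 to 516 ± 41.7 normalized counts (log2 fold change 0.64, edgeR adjusted p = 5.24e-07). It overlaps MORF4L1 on the opposite strand, whose part in the ADAMTS7 count was not tested. ADAMTS10 rose by 0.20 on the log2 scale, although its conditions overlapped. ADAMTS13, the protease of von Willebrand factor, was at 336 ± 23.6 and 329 ± 29.5 without a call, as were ADAMTS18 and ADAMTS19 at low counts.

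ADAMTSL proteins bind matrix fibers. ADAMTSL4, a partner of fibrillin 1 in the fibers that hold the lens, had 375, 264 and 334 normalized counts in siControl against 1213, 1145 and 1077 in siSFPQ. The log2 fold change of 1.82 (SE 0.0892, edgeR adjusted p = 4e-18) was larger than that of MMP13, and lay between 1.69 and 1.94 with each library left out. ADAMTSL4 overlaps MCL1 on the opposite strand, an abundant gene that went from 14034 ± 558 to 17185 ± 163 normalized counts, and its part in the ADAMTSL4 count was not tested. ADAMTSL5 rose by 0.33, while ADAMTSL1 and ADAMTSL3 fell by 0.21 and 0.57 on the log2 scale and ADAMTSL2 was not called. ADAMTSL5 overlaps PLK5 and ADAMTSL1 overlaps SAXO1, each on the opposite strand, and the part of these partners was not tested.

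Gene span, from start to end with introns included, was set against the fold changes. Across the 67 members tested, the log2 fold change fell with span, at a Pearson r of -0.45 with log10 span and a Spearman rho of -0.46. Over the 48 members of at least 1 CPM rho was -0.57, and over the 48 members whose span overlaps no other protein-coding gene it was -0.49. These are descriptions across genes measured in the same 6 libraries, which are not independent replicates. For all 16477 protein-coding genes tested rho was -0.28, and for the 12961 with at least 1 CPM it was -0.30. With the length of the exon union in place of span, rho was -0.39 over the members tested and -0.42 over those of at least 1 CPM. For the 16477 protein-coding genes it was -0.16. By family, rho with span was -0.06 over 22 MMP, -0.41 over 17 ADAM and -0.45 over 19 ADAMTS genes. With at least 1 CPM it was -0.39 over 13 MMP, -0.65 over 11 ADAM and -0.40 over 16 ADAMTS genes.

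Of 19 members tested that span over 150 kb, 14 fell (73.7%) and 2 rose (10.5%), with a median log2 fold change of -0.68. The 2089 protein-coding genes of that span gave 63.6% and 11.1%, with a median of -0.56, so these long members behaved much as long genes did in general. The 2 that rose were ADAM19 and ADAMTS9, at 180 and 172 kb, and ADAMTS18, ADAMTS19 and ADAMTS20 were not called. Among members over 150 kb, 2 of 19 overlap another protein-coding gene. Of 35 members under 50 kb, 14 rose (40%) and 4 fell (11.4%), with a median of 0.33 (0.29 with MMP28 and TIMP4 set against the floor), where 10250 protein-coding genes gave 32.4% and 21.6% with a median of 0.07. The 4 that fell were ADAMTS1, ADAMTS5, MMP8 and MMP14. For the 13 members of 50 to 150 kb, 3 rose (23.1%) and 4 fell (30.8%). The 4138 protein-coding genes of that span gave 25.9% and 37.6%, with a median of -0.06. The median of these members was 0.38 and turned to -0.19 with members of at least 1 CPM. It was 0.07 without siSFPQ replicate 2 and 0.09 without any one siControl replicate. TIMP2 and TIMP3, at 72.4 and 61.3 kb, fell further than any other member of this size that was tested.

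Span, in turn, had a median of 15 kb for MMP, 109 kb for ADAM and 172 kb for ADAMTS genes tested. Over 150 kb, 1 of 1 MMP gene tested (MMP16), 5 of 6 ADAM and 6 of 10 ADAMTS genes fell, beside 63.6% of protein-coding genes. At that span 1 ADAM and 1 ADAMTS gene rose, beside 11.1% of protein-coding genes. Under 50 kb, 7 of 18 MMP genes rose and 2 fell, 3 of 5 ADAM genes rose and 0 fell, and 1 of 7 ADAMTS genes rose and 2 fell, beside the 32.4% and 21.6% of protein-coding genes given above. The median log2 fold change under 50 kb was 0.42 for MMP, 0.56 for ADAM and -0.03 for ADAMTS genes, and over 150 kb it was -0.52 for ADAM and -0.72 for ADAMTS genes. With 1 MMP gene tested over 150 kb, family and span cannot be told apart for long MMP genes. The member with the longest span, ADAMTSL1 at 1004 kb, fell by only 0.21 on the log2 scale, less than ADAMTSL3 at 386 kb.

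**Figure D3:**
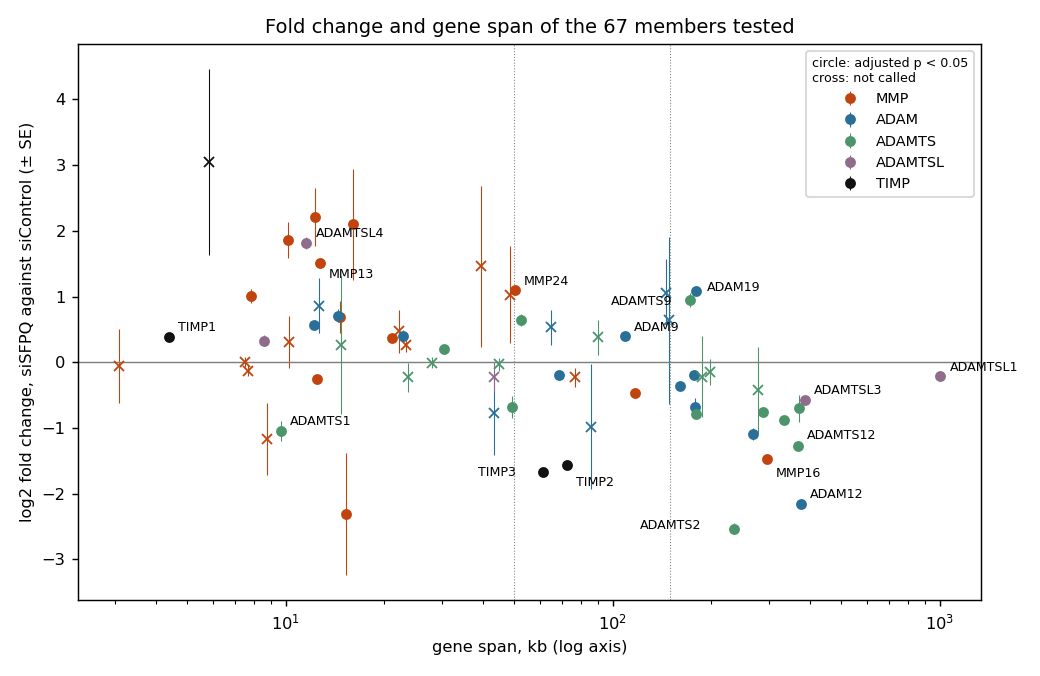
Log2 fold change (± SE) of siSFPQ against siControl for the 67 members tested, against gene span in kb on a log axis, colored by family, with circles for an adjusted p under 0.05 and crosses for members not called; dotted lines mark 50 and 150 kb. Right of 150 kb all circles lie below 0 apart from ADAM19 and ADAMTS9, whereas TIMP2 and TIMP3 fell at shorter spans.

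Genes that act with these families were counted from lists chosen by function. Their shares stand beside the 28.0% of protein-coding genes that rose and the 30.9% that fell. Among plasminogen and proprotein convertase genes, 4 of 10 tested rose (40%) and 4 fell (40%), none past the threshold. FURIN, which cuts the precursors of membrane-type MMPs and ADAMs, rose from 10566 ± 144 to 14013 ± 482 normalized counts (log2 fold change 0.41, edgeR adjusted p = 2.79e-11), and PLAT, the tissue plasminogen activator, by 0.45. SERPINE2, an inhibitor of such activators, fell by 0.64 and the convertase PCSK5 by 0.54 on the log2 scale.

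Of 10 other inhibitors and partners, 3 rose (30%) and 7 fell (70%), among them TFPI2, which had 14, 0 and 3 counts in siControl and 0, 1 and 0 in siSFPQ, so that 1 library carried its difference and the conditions overlapped. A2M, a general trap of proteases, fell from 2781 ± 143 to 558 ± 78.5 normalized counts (log2 fold change -2.31, SE 0.0679, edgeR adjusted p = 2.61e-24). RECK, a membrane-anchored MMP inhibitor, fell from 1547 ± 91.2 to 826 ± 19.6 (log2 fold change -0.91, edgeR adjusted p = 1.46e-14). The integrin subunit ITGB3 rose by 1.05 and the ADAMTS-like protein PAPLN by 0.50 on the log2 scale.

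In the list of ADAM17 and ADAM10 trafficking, 5 of 9 rose (55.6%) and 1 fell (11.1%). RHBDF2, which brings ADAM17 to the cell surface, rose from 1220 ± 48.9 to 2999 ± 128 normalized counts (log2 fold change 1.30, SE 0.0503, edgeR adjusted p = 6.33e-21). The tetraspanin TSPAN14, a partner of ADAM10, rose by 0.56, and the related TSPAN5 fell from 4116 ± 193 to 1620 ± 81.9 (log2 fold change -1.34, edgeR adjusted p = 4.97e-22). Other matrix proteases gave 4 rises (33.3%) and 5 falls (41.7%) of 12, with HTRA1 at -1.75 and TLL1 at -1.34, and with TLL2 at 0.88 and CTSK at 0.75 on the log2 scale.

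Among 18 substrates of ectodomain shedding tested, 9 rose (50%) and 5 fell (27.8%). IL6R, the interleukin 6 receptor, rose from 191 ± 11.2 to 705 ± 64.4 normalized counts (log2 fold change 1.88, SE 0.0958, edgeR adjusted p = 1.06e-17), and the EGF receptor ligand AREG by 1.28. TGFA, another ligand of that receptor, fell from 3192 ± 218 to 1024 ± 86.4 (log2 fold change -1.64, SE 0.0576, edgeR adjusted p = 3.99e-22), and the adhesion protein L1CAM by 1.22 on the log2 scale. Of 12 ADAMTS substrates tested, 2 rose (16.7%) and 7 fell (58.3%). THBS1, a thrombospondin, fell from 42944 ± 465 to 11621 ± 562 normalized counts (log2 fold change -1.89, edgeR adjusted p = 8.46e-29) and ACAN, or aggrecan, by 1.51, while VWF and BCAN rose by 0.53 and 0.33 on the log2 scale.

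**Figure D4:**
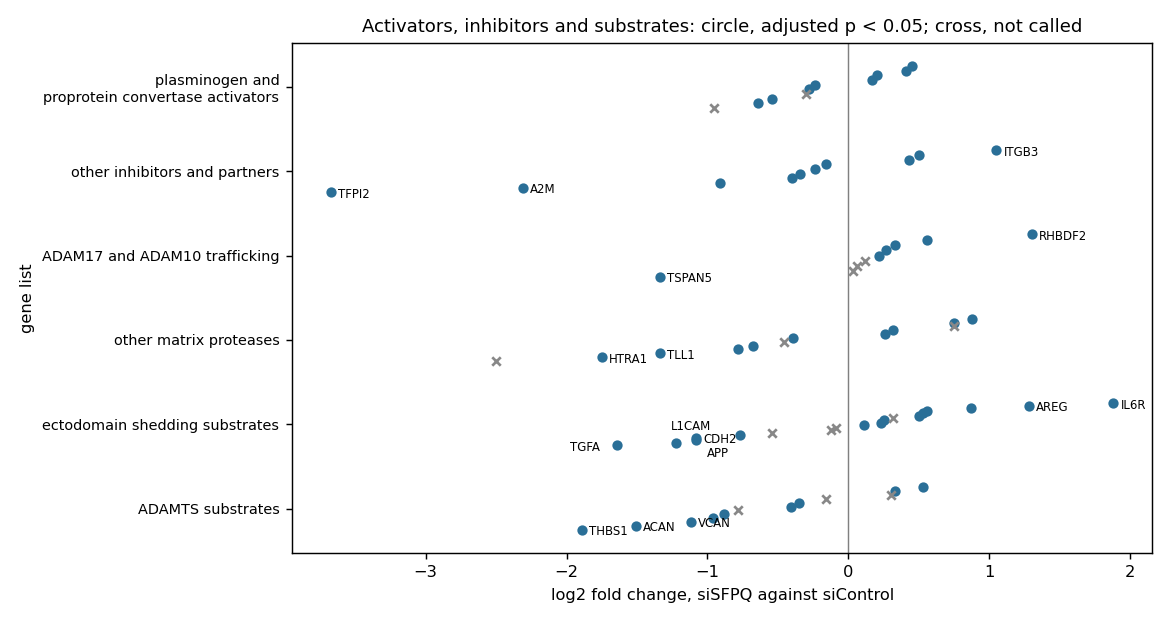
Log2 fold changes of siSFPQ against siControl (horizontal axis) for tested genes of 6 lists (vertical axis), with circles for an adjusted p under 0.05, crosses for genes not called, and names for called genes beyond 1 in either direction. TFPI2, at the far left, rests on 1 siControl library with 14 counts, while A2M, TSPAN5, HTRA1, TGFA and THBS1 fell from means of 970 to 42944 normalized counts.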

How the data were processed

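RNA of 3 siControl and 3 siSFPQ cultures was sequenced, and the authors deposited raw counts per Ensembl gene. Per the methods and submitters' notes, reads were checked with FastQC and quantified with STAR 2.7.9a, with GRCh38 as the build; the methods name a stranded TruSeq kit, but whether the counting used strand is not given in the sources used here, so counts of overlapping genes are uncertain. Conditions and replicates came from sample titles, and 0 sample columns were left unused. GENCODE release 44 on GRCh38 matched 60463 of 60664 genes and gave names, classes and spans.

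Genes with at least 10 counts in total were fitted together in edgeR 4.0.16 (R 4.3.3; TMM, quasi-likelihood test without covariates), and p-values were adjusted by Benjamini-Hochberg over all 29022. Genes were called at an adjusted p under 0.05, and called past both thresholds where the absolute log2 fold change was also over 1.5. Values are mean ± SD of normalized counts. For medians given against the floor, a condition with at most 3 counts in every library was set to 3 counts per library. Scripts were tested on simulated data. Alternatives were RLE or no size factors, other filters, DESeq2 1.42.0, a replicate block, and each library left out.

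The members, lists and tests were chosen with earlier results of these data known. Named members were SFPQ, those past both thresholds, the 10 largest rises and 10 largest falls at 1 CPM or more, the TIMPs, MMP1, MMP2, MMP3, MMP9, MMP12, MMP13, MMP14, ADAM10 and ADAM17, with up to 2 rises and 2 falls per list; others were added after their values were seen, to fill families. A planned search for the catalytic zinc motif was not run, as no protein sequences were used here.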

Additional observations from a re-analysis of the deposited data

How the results depend on the processing

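The members that rose numbered 17 to 20 and those that fell 20 to 23 under each alternative run. Leaving out single libraries gave 3 to 6 members past both thresholds upwards, the 3 without siControl replicate 2, and a limit of 1 in place of 1.5 gave 8 upwards and 9 downwards. Over all genes, filterByExpr, which tested 21270 genes, gave 967 genes past both thresholds upwards in place of 1609. Downwards, the genes past both thresholds went from 1384 to 996. The median of all genes stayed between -0.00 and 0.08. Sizing by library size alone took TIMP2 off the threshold of 1.5 and put the medians at -0.15 for ADAMTSL, -0.52 for TIMP and 0.39 for members under 50 kb. The TIMP median was -1.56 with filterByExpr, which dropped TIMP4. With single libraries left out, medians ranged from 0.22 (without siSFPQ replicate 2) to 0.46 (without siSFPQ replicate 1) for MMP, from 0.07 (without siControl replicate 2; 0.09 without siControl replicate 1, siControl replicate 3 or siSFPQ replicate 2) to 0.40 for ADAM, from -0.70 (without siSFPQ replicate 1) to -0.03 (without siSFPQ replicate 3) for ADAMTS, from -0.22 to -0.10 (without siControl replicate 2) for ADAMTSL, from -1.60 (without siSFPQ replicate 2; -1.53 without siSFPQ replicate 1; in neither was TIMP4 tested) to -0.57 for TIMP, from 0.22 (without siSFPQ replicate 2) to 0.41 for spans under 50 kb, from 0.07 to 0.42 for spans of 50 to 150 kb and from -0.74 to -0.57 for spans over 150 kb. With at least 1 CPM, the median was -0.17 for all members and -0.19 for spans of 50 to 150 kb, and rho with span was -0.57. Divided at 100 kb, the medians were 0.32 below and -0.46 above. MMP13 was no longer past 1.5 with every gene of at least 1 count fitted. The same-numbered libraries of the conditions correlated in their deviations at 0.00191, 0.0121 and 0.0153, so the numbers were not taken as pairs, though each library correlated best with its own number. The replicate block gave 20 members higher and 21 lower, a median of 0.37 for spans under 50 kb, and adjusted p of 0.0908 for MMP11 and 0.0628 for MMP8. TIMP4 passed an adjusted p of 0.05 only without siControl replicate 1 (0.0367). Genes with few reads, 19 of the members tested being under 1 CPM, are measured with little precision.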

Other observations

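Genes of other classes that share these names, 26 in number, were mostly near the floor. ADAMTS9-AS1, a lncRNA gene opposite ADAMTS9, had 0, 1 and 3 counts in siControl and 24, 11 and 14 in siSFPQ and rose (edgeR adjusted p = 0.000355), as ADAMTS9 did. ADAMTS9-AS2, a longer lncRNA gene on that strand, had 15 ± 4.34 and 14.3 ± 5.71 normalized counts (SD, n = 3 each) and was not called. MMP25-AS1, which overlaps MMP25 on the opposite strand, rose from 364 ± 53.6 to 472 ± 42.0 normalized counts (log2 fold change 0.38, edgeR adjusted p = 0.00243) and stood at a higher level than MMP25. None of the ADAM pseudogenes was called.

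THSD4, an ADAMTS-like gene under another symbol, spans 686 kb and rose from 146 ± 27.4 to 457 ± 40.2 normalized counts (log2 fold change 1.64, SE 0.119, edgeR adjusted p = 1.2e-13). It thus rose at a span over 150 kb, as did ADAM19 and ADAMTS9.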
